A study of Homo sapiens with 6 samples.

Results

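The genes described here are those of calmodulin, of its kinase CaMKII and of its phosphatase calcineurin. They were chosen by name, and all 9 (CALM2, CALM3, CAMK2D, CAMK2G, PPP3CA, PPP3CB, PPP3R1, NFATC3 and RCAN1) were found among the 22794 genes of the deposited tables. The cells were CAL-51, a human breast carcinoma line, which had received a plasmid with a p27-mVenus reporter and were sorted by p27 signal. Poly(A) RNA of 3 libraries of p27-positive cells (p27+) and 3 libraries of p27-negative cells (p27-) was sequenced. The library names call these groups p27high and p27low, so the p27-negative cells need not lack p27. p27, the product of CDKN1B, is an inhibitor of cyclin-dependent kinases. All 6 libraries came from the same line, and no treatment other than the transfection is given in the labels. Cells of a mock transfection are not analysed here, so effects of the plasmid cannot be told apart from a difference in p27 state. The labels do not say whether the libraries of a group came from separate cultures, and the p-values therefore reflect library-to-library spread alone, which may be technical.

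Calmodulin is the small calcium sensor of all animal cells. When calcium rises it wraps around target proteins and switches them on, among them the CaMKII kinases, which then stay active by phosphorylating themselves, and calcineurin, a phosphatase made of a catalytic A subunit and a calcium-binding B subunit. Calcineurin removes phosphates from the NFAT transcription factors, which then enter the nucleus, and RCAN1 is both a calcineurin inhibitor and a gene that NFAT induces. The title of the series names the calcium channel TRPC6, which lies upstream of these proteins.

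CALM2 lies on chromosome 2 (chr2:47160084-47176921, minus strand, hg38) and CALM3 on chromosome 19 (chr19:46601074-46610782, plus strand), and they encode the same protein. Their first 90 coding bases, from GENCODE release 29, are shown because they explain how the reads of these genes can be told apart. Capitals mark the 15 positions at which they differ.
CALM2: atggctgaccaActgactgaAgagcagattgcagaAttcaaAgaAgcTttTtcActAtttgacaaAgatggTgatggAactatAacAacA
CALM3: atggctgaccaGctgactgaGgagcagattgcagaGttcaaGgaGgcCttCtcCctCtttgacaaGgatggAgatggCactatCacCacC
Over the whole coding sequence of 447 bases CALM2 and CALM3 differed at 82 bases. None of these differences changes any of the 149 amino acids. The longest run shared by their reference transcripts was 17 bases. CALM2 also has pseudogenes. CALM2P2 shares a run of 143 bases with CALM2, and it was assigned 136 reads in the p27-positive libraries and 163 in the p27-negative ones, against 28868 (p27-positive) and 45537 (p27-negative) reads of CALM2.

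The libraries held 22216934 to 28609257 reads assigned to listed genes. Values called normalized counts are the authors' read counts divided by a size factor per library. Levels of different genes are compared only as FPKM, which divides reads by the length of the gene model and by the reads of the library. Log2 fold changes (p27-positive minus p27-negative) are differences of log2(normalized count + 1), and a gene is called at a Benjamini-Hochberg adjusted p under 0.05 in limma, fitted across the 15950 genes whose mean reached 10 normalized counts. Of those genes 52.6% were called, 25.5% higher and 27.1% lower. Of the 9 genes described here, all passed the filter, 1 was called higher, 5 were called lower and 3 did not pass. Their median log2 fold change was -0.35, against 0.03 for all genes tested. On normalized counts the groups did not overlap in 8 of the 9 genes, against 57.7% of all genes tested, and on FPKM they did not overlap in 6 of the 9, against 59.2% of the 14195 genes tested there.

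How the libraries are scaled to each other moves these values. The median of all tested genes was 0.13 higher with library-total scaling and 0.11 higher with upper-quartile rescaling. With the library total 5343 genes were called higher and 3114 lower, against 4067 and 4318 with the authors' size factors. Under both rescalings 1 of the 9 genes was called higher and 5 lower, where 33.5% and 19.5% of all genes were called higher and lower with the library total (53.0% in all), and 32.2% and 20.5% with upper-quartile rescaling (52.7% in all). With quantile normalization 1 was called higher and 6 lower, against 24.1% and 25.1% of all genes (49.3% in all). In the FPKM values 2 were called higher and 4 lower, against 29.2% and 20% of 14195 genes (49.2% in all). The 8 cell cycle genes listed for context, such as MKI67 and CCNA2, all fell (median log2 fold change -1.72), and their summed level was 29667 to 30576 normalized counts among p27-positive and 87122 to 90435 among p27-negative libraries. The part of this difference in the values below was not tested, and in bulk RNA fewer cells that express a gene cannot be told apart from less RNA per cell. Of 7 epithelial markers 5 are in the tables, with sums between 144263 and 149883 normalized counts (p27-positive) and between 93291 and 94930 (p27-negative). Their highest, KRT8, was at 86970 ± 2044 (p27-positive) and 57174 ± 282 (p27-negative) normalized counts (SD, n = 3 each), while CDH1 was at 0 to 7 normalized counts in every library. Of 4 epithelial markers tested, 3 were called higher and 1 lower, and the lower call was lost with upper-quartile rescaling and with the library total. Of 8 leukocyte markers 3 are in the tables, with sums between 78.7 and 130 normalized counts (p27-positive) and between 47.9 and 97.0 (p27-negative), and CD14 was at 0 to 10 counts. Of 7 endothelial and stromal markers 4 are in the tables, at sums of 4446 to 4766 (p27-positive) and 2805 to 2891 (p27-negative) normalized counts. Most of that sum is VWF and CDH5, while PECAM1 was at 0 to 9. All 3 endothelial and stromal markers tested were called higher (median log2 fold change 1.24), where 25.5% of all genes were. The 5 mesenchymal markers summed to between 22083 and 22939 (p27-positive) and between 16377 and 16938 (p27-negative). The markers did not move together: of 4 tested, 1 was called higher, 2 were called lower and 1 did not pass. Of all genes 25.5% were called higher and 27.1% lower. The part of these markers in the results was not tested.

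**Figure D1:**
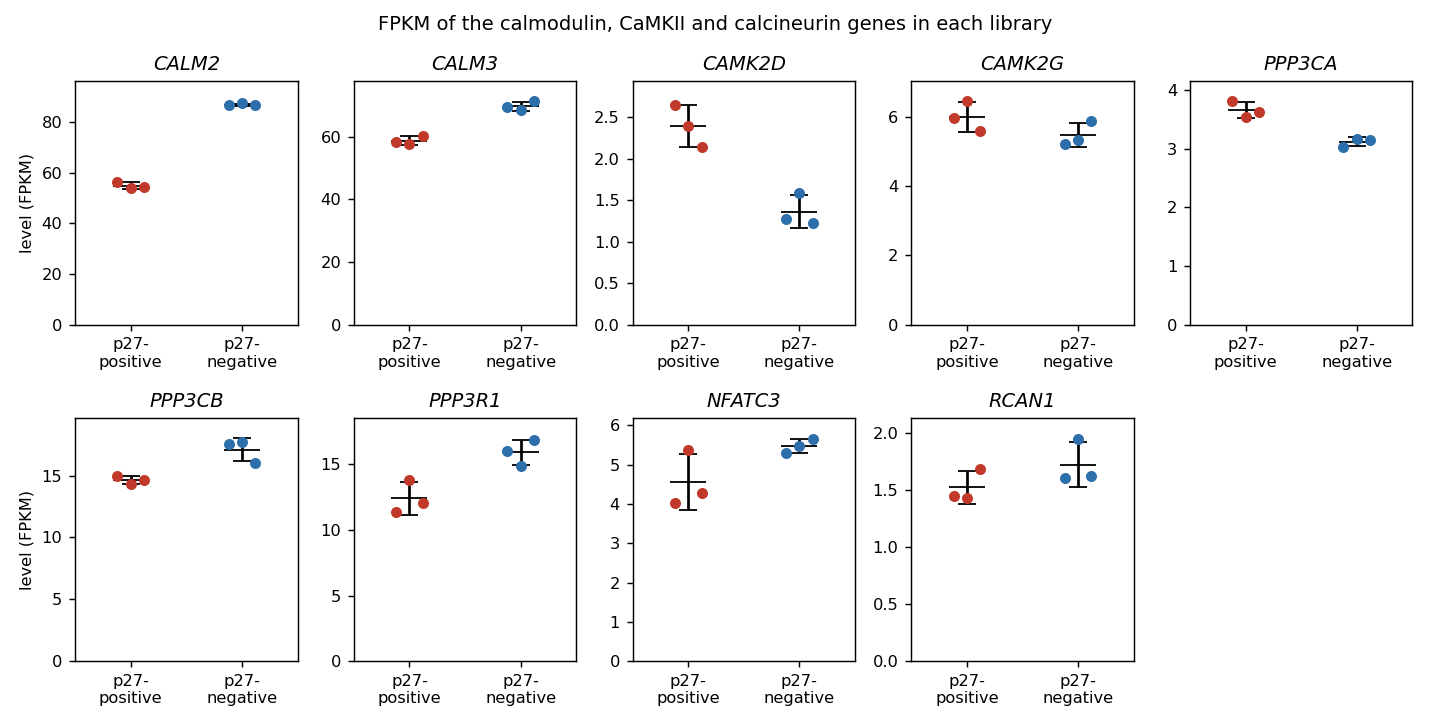
Level of each gene in FPKM in the 3 p27-positive (red, left) and 3 p27-negative (blue, right) libraries. Points are libraries, black bars the mean and SD, and every axis starts at 0. CAMK2D and PPP3CA sit higher in all p27-positive libraries, and CALM2, CALM3, PPP3CB and PPP3R1 sit lower.

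CALM2 and CALM3 were both lower in p27-positive cells, CALM2 by more. CALM2 had 9398, 8836 and 8954 normalized counts in the p27-positive libraries, against 15699, 15824 and 15611 in the p27-negative libraries. The lowest p27-negative library was far above the highest p27-positive library, and within a group CALM2 varied by 3.27% (p27-positive) and 0.683% (p27-negative), where counting alone gives 1.02% (p27-positive) and 0.812% (p27-negative). Its log2 fold change was -0.79 ± 0.03 (SE; limma, adjusted p = 8.0e-23), that is 0.577 times the p27-negative level.

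CALM3 had 7133, 6972 and 7318 normalized counts in p27-positive libraries, against 9246, 9127 and 9461 in p27-negative libraries. The groups did not overlap, and the log2 fold change was -0.38 ± 0.04 (limma, adjusted p = 1.5e-11). The size of this decrease depended on scaling. It was -0.25 with the library total and -0.16 with quantile normalization, and the call held in both.

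In p27-positive cells CALM3 had the higher level (58.7 ± 1.32 FPKM, SD, n = 3), with CALM2 at 54.8 ± 1.36 FPKM. In p27-negative cells CALM2 had the higher level (86.8 ± 0.415 FPKM), with CALM3 at 69.7 ± 1.44 FPKM. The libraries of these genes did not overlap in level within either group. The FPKM values use gene models of 7113 bases for CALM2 and 5235 for CALM3, so the order between genes depends on those lengths, while changes within a gene do not.

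A ratio of 2 genes within a library is the same under any scaling by 1 factor per library, but not under quantile normalization. The log2 ratio of CALM2 to CALM3 in FPKM was -0.04, -0.10 and -0.15 in p27-positive libraries, against 0.32, 0.35 and 0.28 in p27-negative libraries, a difference of -0.42. The two-sided exact permutation p was 0.1, as low as 3 and 3 libraries can give (0.133 after adjustment over 4 ratios).

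Of the CaMKII genes, CAMK2D rose and CAMK2G did not pass. CAMK2D, on chromosome 4 (chr4:113418054-113761927, minus strand), encodes the delta chain, a main form in heart and many other tissues. It had 968, 864 and 775 normalized counts in p27-positive libraries, against 506, 633 and 486 in p27-negative libraries. The groups did not overlap, although both varied (11.1% in p27-positive, 14.7% in p27-negative) by more than counting gives (3.30% in p27-positive, 4.38% in p27-negative). Its log2 fold change was 0.68 ± 0.10 (limma, adjusted p = 5.3e-07), and it was 0.60 to 0.81 over the 18 alternatives, with the call kept in each.

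CAMK2G, on chromosome 10 (chr10:73812501-73874591, minus strand), encodes the gamma chain of the same kinase. It had 1165, 1240 and 1084 normalized counts in p27-positive libraries, against 1108, 1136 and 1242 in p27-negative libraries, and the groups overlapped. The log2 fold change was 0.001 ± 0.077, with a 95% interval of -0.16 to 0.16 (limma, adjusted p = 0.993), and its sign turned when single libraries were left out. The log2 ratio of CAMK2D to CAMK2G was -1.33 ± 0.137 among p27-positive and -2.01 ± 0.255 among p27-negative libraries (SD, n = 3 each), a difference of 0.68 with no overlap (exact two-sided permutation p = 0.1, the smallest possible). On the FPKM scale CAMK2G remained the more abundant, at 5.995 ± 0.426 against 2.39 ± 0.253 FPKM of CAMK2D in p27-positive cells, and 5.47 ± 0.346 against 1.36 ± 0.198 FPKM of CAMK2D in p27-negative cells. The gene model of CAMK2D is the longest of the set at 15626 bases, which lowers its FPKM if most transcripts use less of it. CAMK2B, a form of brain and muscle, had 16 reads among p27-positive and 1 read among p27-negative libraries and was not tested.

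Calcineurin was lower in PPP3CB, a catalytic subunit gene, and in PPP3R1, the regulatory B subunit gene. PPP3R1, on chromosome 2 (chr2:68178857-68256237, minus strand), had 894, 1072 and 944 normalized counts in p27-positive libraries, against 1369, 1276 and 1437 in p27-negative libraries. The groups did not overlap, and the log2 fold change was -0.49 ± 0.08 (limma, adjusted p = 1.5e-06). PPP3CB, on chromosome 10 (chr10:73436433-73496024, minus strand), encodes the beta form of the catalytic A subunit. It had 1787, 1678 and 1730 normalized counts in p27-positive libraries, against 2274, 2293 and 2065 in p27-negative libraries. The groups did not overlap here either, and the log2 fold change was -0.35 ± 0.06 (limma, adjusted p = 6.2e-06), or -0.22 with scaling to the library total, where the call held.

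PPP3CA, on chromosome 4 (chr4:101023409-101348278, minus strand), encodes the alpha form of the catalytic subunit. It had 465, 425 and 438 normalized counts in p27-positive libraries, against 401, 421 and 417 in p27-negative libraries. Its groups were separated by a few counts, the log2 fold change was 0.10 ± 0.12 with a 95% interval of -0.14 to 0.34, and it did not pass (limma, adjusted p = 0.507). In the FPKM table it passed, at 0.22 (limma, adjusted p = 0.042). PPP3CC, the third catalytic gene, was at 351 ± 28.5 (p27-positive) and 358 ± 73.5 (p27-negative) normalized counts (SD, n = 3 each) and did not pass, with a sign that turned to positive with upper-quartile rescaling and with the library total. Opposite-strand transcripts overlap PPP3CA (FLJ20021, by 527 bases) and PPP3CB (PPP3CB-AS1, by 500 bases), and whether reads were counted by strand is not given in the sources used here.

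The log2 ratio of PPP3CA to PPP3CB was -1.98, -2.02 and -2.01 in p27-positive libraries, against -2.54, -2.48 and -2.34 in p27-negative libraries, a difference of 0.45 with no overlap (exact two-sided permutation p = 0.1, the smallest possible). PPP3CB remained the more abundant, at 14.6 ± 0.344 against 3.65 ± 0.137 FPKM of PPP3CA in p27-positive cells, and 17.1 ± 0.939 against 3.11 ± 0.079 FPKM of PPP3CA in p27-negative cells. The ratio of PPP3CA and PPP3CB together to PPP3R1 overlapped between groups (log2 0.56 ± 0.182 in p27-positive, 0.35 ± 0.151 in p27-negative; exact two-sided permutation p = 0.2). The summed level of PPP3CA, PPP3CB and PPP3CC overlapped as well, at 22.6 to 24.2 FPKM among p27-positive and 23.03 to 26.4 FPKM among p27-negative libraries (exact two-sided permutation p = 0.3). On normalized counts that sum did not overlap (2526 ± 100.3 in p27-positive, 2982 ± 187 in p27-negative).

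NFATC3 and RCAN1 stand downstream of calcineurin. NFATC3, a calcium-regulated NFAT factor on chromosome 16 (chr16:68084751-68229259, plus strand), fell. It had 830, 1091 and 874 normalized counts in p27-positive libraries, against 1188, 1226 and 1260 in p27-negative libraries. The p27-positive libraries varied by 15.0%, against 2.95% for p27-negative libraries, and replicate 2 was the highest of its group. The log2 fold change was -0.40 ± 0.09 (limma, adjusted p = 1.1e-04), or -0.52 without p27-positive replicate 2. In the FPKM table that library, at 5.37 FPKM, was above the lowest p27-negative library at 5.30. The call was lost in that table (-0.27; limma, adjusted p = 0.087), the only loss in 18 alternatives. It held with scaling of the counts to the library total, a scaling that the FPKM values share. NFATC3 overlaps ESRP2 on the opposite strand by 227 bases, and ESRP2 held 2455 reads among p27-positive and 2552 among p27-negative libraries.

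RCAN1, on chromosome 21 (chr21:34513142-34615113, minus strand), has several start sites. An internal one drives a shorter form that NFAT is known to induce, and the 250 bases before it (chr21:34526823-34527072, minus strand, RefSeq, GRCh38.p14) are shown with each copy of GGAAA, the core letters of NFAT binding sites, in capitals on either strand (GGAAA or TTTCC).
RCAN1 internal promoter: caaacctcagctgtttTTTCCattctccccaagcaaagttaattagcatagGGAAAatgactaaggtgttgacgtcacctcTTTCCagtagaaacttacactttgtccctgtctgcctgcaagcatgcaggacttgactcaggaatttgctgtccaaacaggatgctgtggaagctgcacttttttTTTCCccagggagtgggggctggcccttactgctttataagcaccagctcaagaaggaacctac
This window held 4 copies, and 1.87% of the 35116 RefSeq promoter windows of that length held as many. At least 1 copy was in 55.6% of them. None of the other 5 RCAN1 windows in the table held a copy, and the match is a description of letters only.

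RCAN1 mRNA did not pass the test. It had 237, 230 and 273 normalized counts in p27-positive libraries, against 285, 346 and 287 in p27-negative libraries. The p27-positive libraries were all lower, by a narrow gap. The log2 fold change was -0.30 ± 0.15, with a 95% interval of -0.61 to 0.001 (limma, adjusted p = 0.0889). It was -0.17 with scaling to the library total, where it did not pass, and -0.48 with quantile normalization, which met the threshold (limma, adjusted p = 0.0085). The tables give a single value per gene, so the NFAT-inducible form is not separated from the longer one. With 236 to 320 reads per library, RCAN1 was the least read of the 9 genes, and counting alone gives a variation of about 6.16% among p27-positive and 5.83% among p27-negative libraries.

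**Figure D2:**
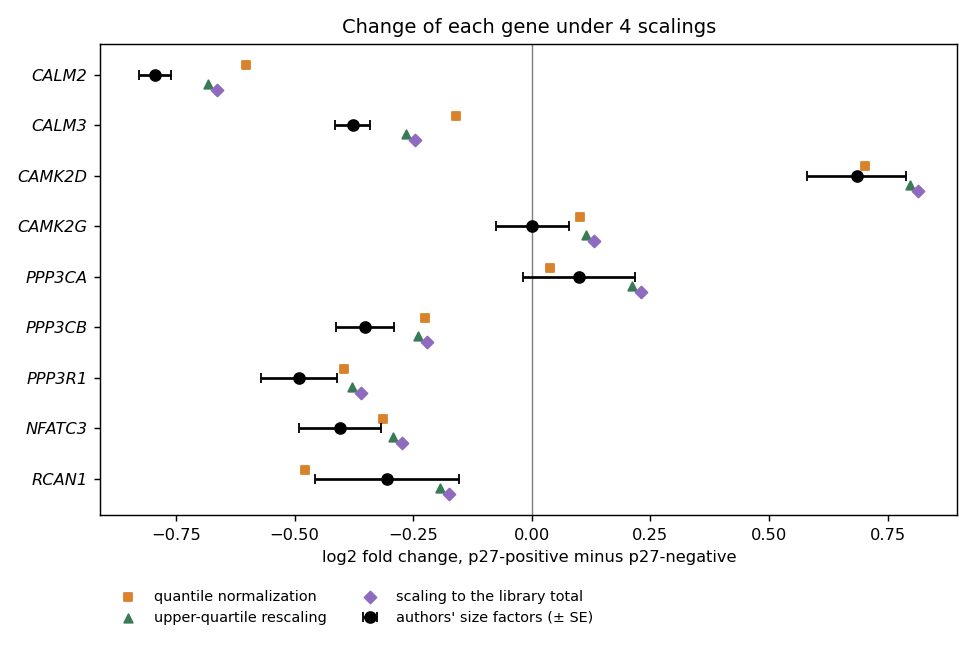
Log2 fold change of each gene, p27-positive minus p27-negative, with the authors' size factors (black, ± SE) and with 3 other scalings (coloured symbols). CAMK2D lies right of 0 and CALM2, CALM3, PPP3CB, PPP3R1, NFATC3 and RCAN1 left of 0 under each of the 4 scalings.

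The wider pathway was described with 7 lists of 78 genes, of which 62 are in the tables and 55 passed the filter. Of these 19 were called higher, 16 lower and 20 did not pass, and the median log2 fold change was 0.04, against 0.03 for all genes tested. That is 19 and 16 of 55, where 25.5% of all genes were called higher and 27.1% lower. With scaling to the library total 24 were called higher and 10 lower, where the shares over all genes were 33.5% and 19.5%. The counts by list below come from the fit with the authors' size factors, where 25.5% of all genes were called higher and 27.1% lower.

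Of 2 calmodulin-like genes tested, CALML6 rose and CALML4 did not pass. Among calmodulin-dependent kinases and inhibitors of CaMKII, CAMK1G rose and CAMKK2 fell. The other 3 of 5 tested, among them the inhibitor gene CAMK2N2, did not pass. CAMK1G, a relative of CaMKI, was at 122 ± 29.3 normalized counts among p27-positive and 42.5 ± 8.75 in p27-negative libraries (log2 fold change 1.49 ± 0.31; limma, adjusted p = 6.9e-05). CAMKK2, which phosphorylates CaMKI, CaMKIV and AMPK, was at 1335 ± 48.4 (p27-positive) and 1574 ± 138 (p27-negative), and its call was lost in 6 of 18 alternatives, among them each of the other scalings and the fit without p27-negative replicate 2. Of the other calmodulin-regulated enzymes and buffers 3 rose, 3 fell and 7 did not pass. MYLK, the myosin light chain kinase, rose to 15404 ± 182 normalized counts in p27-positive libraries, against 8527 ± 197 in p27-negative libraries (0.85 ± 0.03). DAPK1, a death-associated kinase (0.66 ± 0.03), and EEF2K, which inhibits translation elongation (0.54 ± 0.06), rose as well. ADCY3, an adenylyl cyclase (-0.74 ± 0.07), and the calmodulin buffer gene NRGN (-0.79 ± 0.14) fell, as did IQGAP1 (-0.13 ± 0.03), whose sign turned with quantile normalization (0.09) and whose call was lost with the other scalings. IQGAP1 was named after its value was seen, to complete the count.

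In the list of calcineurin subunits, inhibitors and anchors, 4 of 7 tested rose and 2 fell, where 52.6% of all genes were called. The catalytic gene PPP3CC, given above, did not pass. CABIN1, which encodes a calcineurin-binding inhibitor, was at 7247 ± 93.5 normalized counts among p27-positive and 3829 ± 59.9 in p27-negative libraries (0.92 ± 0.04; limma, adjusted p = 1.0e-21), and it was 0.91 to 1.11 over the 18 alternatives. CHP1, a calcineurin B homologue (0.33 ± 0.05), and FKBP1A, the FK506-binding immunophilin (0.19 ± 0.04), rose. RCAN3, a relative of RCAN1, rose at a low level, with 130 reads among p27-positive and 17 among p27-negative libraries. PPIA, cyclophilin A (-0.42 ± 0.03), and the anchor gene AKAP5 (-0.78 ± 0.26) fell, and AKAP5 was named after its value was seen, to complete the count.

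Of the other NFAT genes, NFAT5, NFATC2 and NFATC4 were called higher. NFAT5, the calcium-independent member that responds to osmotic stress, was at 2244 ± 179 normalized counts among p27-positive and 1933 ± 57.1 in p27-negative libraries (0.21 ± 0.06; limma, adjusted p = 0.0037), with the call lost without the trended prior and without p27-positive replicate 2 (0.15). NFATC2 was at 231 ± 12.4 in p27-positive and 151 ± 38.9 in p27-negative cells (0.64 ± 0.19; limma, adjusted p = 0.0051), with the call lost in 4 of 18 alternatives, and at 0.41 without p27-negative replicate 3. NFATC4 was at 43.9 ± 20.8 (p27-positive) and 17.1 ± 13.1 (p27-negative), with overlapping groups and its call lost in 6 of 16 alternatives. NFATC1 did not pass (90.1 ± 36.6 in p27-positive, 72.5 ± 29.6 in p27-negative). Of the kinases that phosphorylate NFAT, CSNK1A1 (-0.42 ± 0.05), DYRK1A (-0.30 ± 0.06) and DYRK2 (-0.30 ± 0.06) fell and GSK3B (0.32 ± 0.05) rose, so that 4 of 11 in this list rose and 3 fell.

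Of 10 other calcineurin substrates tested, 2 rose and 4 fell. Those that rose, CRTC1 (0.29 ± 0.11) and TFE3 (0.14 ± 0.05), had overlapping groups. The higher calls numbered 0 without the trended prior, without p27-positive replicate 1 and without p27-negative replicate 1. CRTC1 was named after its value was seen, to complete the count. DNM1L, the mitochondrial fission GTPase (-0.33 ± 0.05), and CRTC3, a CREB coactivator (-0.37 ± 0.08), fell. The calls of MEF2A, ELK1 and TFE3 were lost in 5 to 7 of 18 alternatives. All 7 tested genes known to respond to calcineurin and NFAT in other cells were called, 4 higher and 3 lower, where 52.6% of all genes were called. CXCL8 (0.996 ± 0.09), IL6 (1.62 ± 0.23), TNF (2.02 ± 0.43) and NR4A2 (1.79 ± 0.35) rose, while EGR3 (-2.15 ± 0.71), NR4A1 (-0.59 ± 0.20) and NR4A3 (-2.20 ± 0.92) fell. The 4 higher calls were made under each of the 3 other scalings and by edgeR and DESeq2. The lower calls numbered 2 with edgeR and with DESeq2, and 1 with the library total, without the trended prior and without p27-positive replicate 2, where NR4A3 was at -1.15. In the FPKM values 5 of these genes were tested, of which 4 were called higher and 0 lower. EGR3 and NR4A3 had few reads, with 18 and 17 among p27-positive and 79 and 57 among p27-negative libraries. Many other inputs act on these genes, and NR4A1 and NR4A3 were named after their values were seen, to complete the count.

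**Figure D3:**
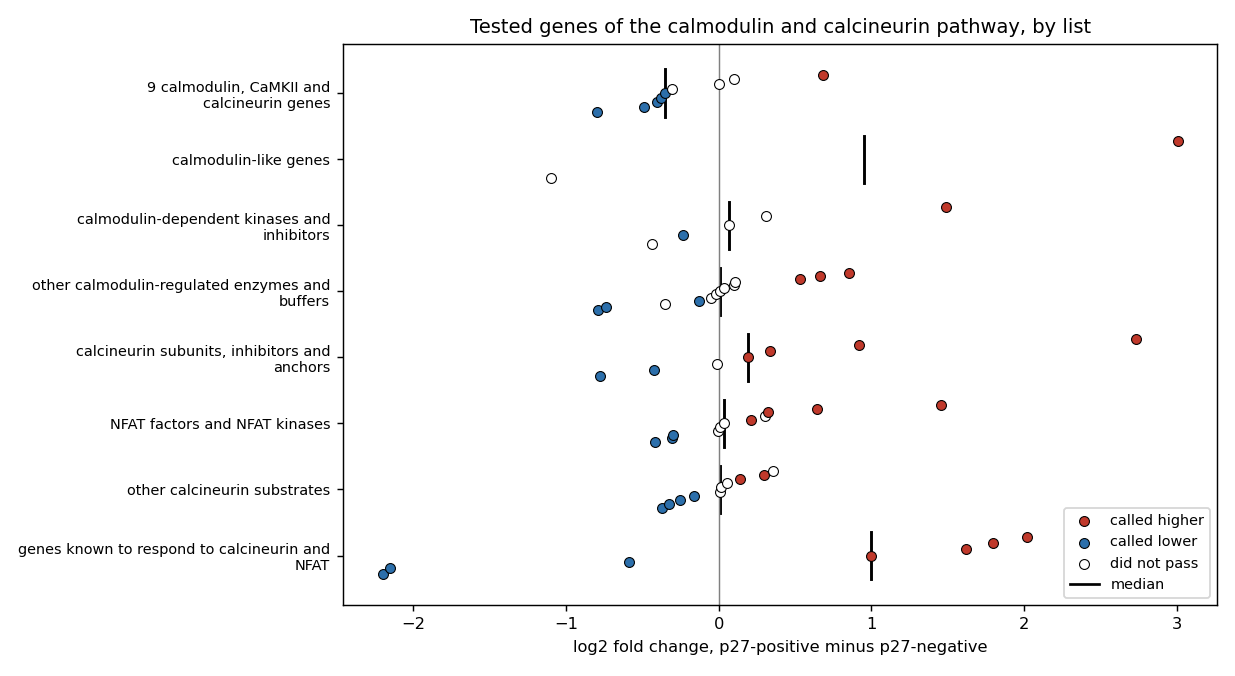
Log2 fold changes of the tested genes by list, p27-positive minus p27-negative (red, called higher; blue, called lower; white, did not pass; black line, median). The median is -0.35 for the 9 genes and 0.04 for all pathway lists together, and 6 of the 7 pathway lists hold calls in both directions.

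The genes most like 3 of the members were found by the root mean square difference of centred log2 values over the 6 libraries, among the 10491 protein-coding genes whose mean reached 100 normalized counts. Nearest to CALM2 were NQO1 (a difference of 0.015), NEMP1 (0.020) and RAN (0.020). Nearest to CAMK2D were TRIM62 (0.065), POLR3GL (0.071) and ZNF197 (0.074). Nearest to RCAN1 were LRRC20 (0.039), RWDD4 (0.041) and ARL3 (0.046). These values are dominated by the difference between the groups, since the 6 libraries form 2 groups, and a small distance says only that the genes differed between them by about the same amount.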

How the data were processed

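Libraries were prepared from poly(A) RNA with a stranded kit, per the labels' protocols. STAR, featureCounts, DESeq2 and build hg38 are named in the submitters' processing notes. For versions, annotation release and strand setting the entry is "not given in the sources used here", so genes that overlap on opposite strands are treated as uncertain. The deposited signal in the first table consists of DESeq2-normalized counts (reads over a size factor), per the file headers. All values (100%) were whole multiples of 1 step per library within 1e-06, so reads were recovered. The deposited FPKM values, per the file headers the authors' own, equal reads divided by a fixed length per gene and by the total reads of the table, so they carry library-total scaling. No column of another series' sample was present.

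limma 3.58.1 (R 4.3.3, trended prior, two-sided) was run on log2(normalized count + 1) for 15950 genes, with group as the only term. Alternatives were pseudocounts of 0.5 and 5, no filter or a mean of 50, 3 other scalings, log2(FPKM + 0.1) filtered at a mean of 0.5, no trended prior, a replicate block, edgeR 4.0.16 and DESeq2 1.42.0 on recovered reads, and each library left out. Scripts were tested on simulated data. Same-group libraries were compared pairwise and exceeded counting noise (chi-square per degree of freedom 5.11 to 6.16), so none was treated as a repeat. Named genes are the members, up to 5 genes per pathway list by smallest p, fixed relatives of the members (CAMK2A, CAMK2B, PPP3CC, NFATC1, NFATC2, NFATC4, NFAT5, RCAN2 and RCAN3, where read), and the 3 protein-coding genes nearest in pattern to CALM2, CAMK2D and RCAN1. The members and lists were chosen with earlier results of these data known. A planned summed level is not reported here.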

Additional observations from a re-analysis of the deposited data

How the results depend on the processing

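The calls of CALM2, CALM3, CAMK2D, PPP3CB and PPP3R1 and their directions were kept under all 18 alternatives, edgeR and DESeq2 among them. NFATC3 lost its call in the FPKM table (-0.27). PPP3CA gained a call there (0.22), and RCAN1 with quantile normalization (-0.48). With scaling of the counts to the library total NFATC3 kept its call, and PPP3CA and RCAN1 did not pass. The cause of these changes was not tested. In the FPKM values 2 of the 9 genes were called higher, 7 pathway genes lower and 2832 of all genes lower, where fewer genes were tested. With scaling to the library total 10 of 55 pathway genes were called lower, where 19.5% of all genes were. In the fit reported above they were 16 of 55, where 27.1% of all genes were called lower. Without the trended prior 14 pathway genes were called higher and 10 lower, against 19 and 16. The share of all genes called in that fit is not given here. On normalized counts the log2 difference of the calcineurin catalytic sum was -0.24, against -0.09 on FPKM. Without single libraries CAMK2G ran from -0.046 to 0.0505. Among genes that did not pass, signs turned for CAMK2N2 (-0.30 with quantile normalization, -0.11 to 0.19 without single libraries), NFATC1 (-0.12 with quantile normalization, -0.0022 to 0.64 without single libraries) and PPP3CC (0.10 with upper-quartile rescaling, 0.12 with the library total and in the FPKM table, -0.16 to 0.13 without single libraries). IQGAP1, called lower, turned to 0.090 with quantile normalization and to 0.00084 with the library total and in the FPKM table. Sizes moved over the 4 scalings, as for FKBP1A (0.19 to 0.40), NFAT5 (0.21 to 0.34) and DNM1L (-0.33 to -0.16). The labels do not say whether same-numbered libraries belong together. Deviations from the group means correlated at 0.001 to 0.008 for same-numbered libraries, against -0.021 to 0.018 for differently numbered ones. No shared deviation was seen, but this cannot tell whether the libraries were collected in pairs. With the replicate block 4065 genes were called higher and 4330 lower, against 4067 and 4318 without it, and no call of the 9 genes changed. Paired sign-flip tests of the ratios gave p = 0.25 at best, the smallest 3 pairs allow by this exact test. Counting error alone is 4.61% for PPP3CA and 6.16% for RCAN1 in p27-positive libraries, which limits both.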

Other observations

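The antisense genes, pseudogenes and PCP4 below were picked after their values were seen. Antisense and pseudogene transcripts at these genes were read at low levels. FLJ20021, which overlaps PPP3CA on the opposite strand, had 68 reads in p27-positive and 15 reads in p27-negative libraries (log2 fold change 1.94 ± 0.79; limma, adjusted p = 0.036). PPP3CB-AS1 had 154 (p27-positive) and 113 (p27-negative) reads and did not pass (0.28 ± 0.38). CALM2P3, a calmodulin pseudogene on chromosome 13, had 6 (p27-positive) and 14 (p27-negative) reads. PCP4, a calmodulin-binding peptide gene, had 0 reads in p27-positive and 19 reads in p27-negative libraries, and CALML6, a calmodulin-like gene, had 101 (p27-positive) and 14 (p27-negative) reads (3.004 ± 0.83; limma, adjusted p = 0.0022), or 2.001 without p27-negative replicate 2, which had none.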
